A study of Mus musculus with 6 samples.

Results

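In the usual coding of assembled transcripts, class j isoforms are transcripts that were assembled from the reads, share at least 1 splice junction with an annotated transcript of a known gene, and differ from every annotated transcript elsewhere along their length. They were taken from the table of linear transcripts as all rows with the class code j. There were 13216 of them among 175010 isoforms, against 141448 annotated isoforms (class =), 13279 isoforms inside introns, 4278 between genes, 320 antisense to exons and 647 with another overlap. Each class j isoform carried a gene symbol, and together they belonged to 5499 genes. RNA came from prefrontal cortex of male C57BL/6 mice, taken at 30 weeks of age after 6 months of daily oral gavage that began at 5 weeks. The control group (3 samples) received water, listed as 0 mg/kg, and the PS_high group (3 samples) received polystyrene nanoparticles (PS NPs) at 50 mg/kg. Libraries were prepared from total RNA with a stranded kit after removal of ribosomal RNA. The labels do not say whether a sample is 1 animal or a pool, so p-values here measure only the spread between these samples.

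Alternative splicing joins the exons of 1 gene in different combinations, and alternative starts and ends add further forms, so that a gene can produce several transcripts and proteins. Brain uses this widely: neuronal splicing factors of the Rbfox, Nova, Celf and Elavl families select exons in synaptic, cytoskeletal and ion channel genes. An assembler such as StringTie builds transcripts from the paths that reads support across exons, and divides the reads of a gene among the transcripts that could have produced them, so the count of 1 isoform depends on which others were assembled. In total RNA, part of the reads comes from transcripts that still hold introns.

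For 7 class j isoforms described below, the bases before a RefSeq start within 50 bases of the isoform's own start are shown. Cplx2, Aldoc and Nfe2l1 are the most abundant among those that start away from every annotated isoform of the gene in the table but near a RefSeq start (chosen after their values were seen). Those of Dido1 and Slc4a3 are among the isoforms with the smallest p in the isoform test below, and those of Fmr1 and Arhgap29 are the leading class j isoforms of genes with the smallest p in the share test. These start at or near an annotated start. Each run is the 150 bases before the RefSeq start of the gene, 5′ to 3′ on the strand of the gene, from RefSeq on GRCm38.p6. Capitals mark the GC box GGGCGG, the CCAAT box CCAAT or the TATA box TATAAA on either strand. Where GC boxes touch or overlap, the capitals run on.
Cplx2 start, chr13:54302406-54302555 (+ strand): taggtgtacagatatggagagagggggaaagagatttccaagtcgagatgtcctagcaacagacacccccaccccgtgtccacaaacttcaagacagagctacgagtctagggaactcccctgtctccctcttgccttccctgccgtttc
Aldoc start, chr11:78322923-78323072 (+ strand): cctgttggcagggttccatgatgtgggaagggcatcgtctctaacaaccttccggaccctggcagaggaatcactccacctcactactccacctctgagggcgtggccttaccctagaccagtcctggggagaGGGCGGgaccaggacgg
Nfe2l1 start, chr11:96823932-96824081 (− strand): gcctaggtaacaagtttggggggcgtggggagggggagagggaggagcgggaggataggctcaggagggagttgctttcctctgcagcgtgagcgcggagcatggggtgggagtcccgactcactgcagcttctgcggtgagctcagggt
Dido1 start, chr2:180710000-180710149 (− strand): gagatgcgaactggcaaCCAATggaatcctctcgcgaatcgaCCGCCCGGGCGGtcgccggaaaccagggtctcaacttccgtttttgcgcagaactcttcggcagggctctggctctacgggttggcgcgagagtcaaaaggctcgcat
Slc4a3 start, chr1:75546312-75546461 (+ strand): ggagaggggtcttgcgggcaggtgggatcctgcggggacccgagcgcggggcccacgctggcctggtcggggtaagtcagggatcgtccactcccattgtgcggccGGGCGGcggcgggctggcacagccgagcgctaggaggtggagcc
Fmr1 start, chrX:68678432-68678581 (+ strand): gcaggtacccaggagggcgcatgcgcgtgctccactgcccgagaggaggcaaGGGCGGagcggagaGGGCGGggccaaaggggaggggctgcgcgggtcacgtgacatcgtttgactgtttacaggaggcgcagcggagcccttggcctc
Arhgap29 start, chr3:121967656-121967805 (+ strand): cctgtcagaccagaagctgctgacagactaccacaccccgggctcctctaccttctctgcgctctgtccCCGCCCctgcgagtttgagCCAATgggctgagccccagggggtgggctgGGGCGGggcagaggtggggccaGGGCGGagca
The windows of Dido1 and Fmr1 held 2 GC boxes each, that of Arhgap29 held 3, and those of Slc4a3 and Aldoc held 1. A CCAAT box was in the windows of Dido1 and Arhgap29, and a TATA box was in none of the 7. Over 32851 RefSeq windows of the same length, 28.6% held a GC box, 24.5% a CCAAT box and 7.6% a TATA box, and the median GC content was 54.0%. GC content was 53.3% before Cplx2 and between 60% and 74.0% before the other six. These matches describe letters and are not measured binding sites. The files give no exon coordinates, so splice junction sequences are not shown.

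The libraries held between 53344395 and 66004386 estimated counts over all isoforms. Markers of the labelled tissue were present: all 10 excitatory neuron markers reached a mean of 0.5 FPKM (a level scaled to isoform length and library size), with a summed level of 279 to 367 FPKM in control against 313 to 359 FPKM in PS_high. The summed level of 8 choroid plexus markers varied most, from 6.17 to 241 FPKM in control and from 11 to 475 FPKM in PS_high, and 5 blood markers summed to 152 to 383 FPKM in control against 89.3 to 256 FPKM in PS_high. The part of these in the results below was not tested. On the 2000 most variable class j isoforms, the first principal component held 22.3% of the variance and lay at −168.18 for PS_high 1 and 122 for PS_high 3, with the other libraries between −10.13 and 32.41. The 3 PS_high libraries thus stood farther from one another on this axis than the 3 control libraries did.

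Class j isoforms held over 26% of all counts in every library. Their share of all counts was 26.8%, 27.0% and 27.7% in the control libraries and 27.3%, 26.9% and 27.1% in the PS_high libraries. Of the counts on class = and class j together, they held 35.7%, 35.7% and 34.8% in control (35.4% ± 0.509, SD, n = 3) and 36.8%, 34.4% and 34.4% in PS_high (35.2% ± 1.37, SD, n = 3). PS_high 1 had the highest share and the other 2 PS_high libraries the lowest, so the groups overlapped. The difference was −0.185 percentage points (exact permutation test, two-sided, p = 0.8, where 3 against 3 samples allow no p below 0.1). On the FPKM scale, which divides by length, the class j share was lower, at 12.8%, 13.1% and 12.1% in control against 13.1%, 11.4% and 11.6% in PS_high. In bulk RNA, fewer cells of a type and less RNA per cell cannot be told apart.

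The number of class j isoforms with a count above 0 was 11185, 11321 and 11482 in control (11329 ± 149, SD, n = 3) and 11077, 11288 and 11358 in PS_high (11241 ± 146, SD, n = 3). These ranges overlapped, with PS_high 1 lowest and control 3 highest, and the difference was −88.3 isoforms (exact permutation test, two-sided, p = 0.5). Over the 6 libraries, 9050 class j isoforms had a count in every library and 110 had none in any. Within the genes that have a class j isoform, class j held 52.4%, 52.6% and 52.3% in control against 53.5%, 51.2% and 51.8% in PS_high (exact permutation test, two-sided, p = 0.8).

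**Figure D1:**
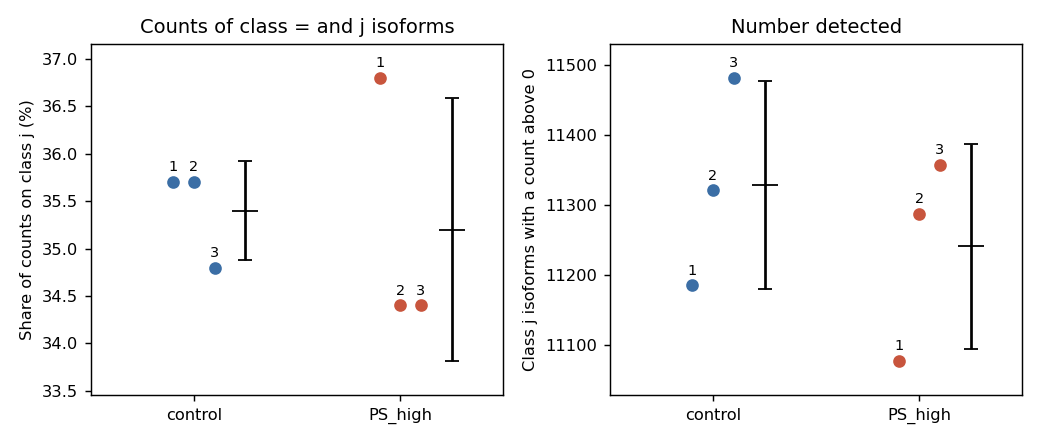
Left, share of the counts on class = and class j isoforms that lie on class j (%, axis not starting at 0); right, number of class j isoforms with a count above 0. Each point is a library with its replicate number, and the bar is the mean ± SD of 3 libraries; the control and PS_high points overlap in both panels, and PS_high 1 has the highest share (36.8%) and the lowest number (11077).

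Class j isoforms were longer than the annotated isoforms of the same genes, and the extra length was in longer exons as well as more of them. The median class j isoform had 9 exons (quartiles 5 and 15), 4248 bases (2489 and 6830) and 417 bases per exon (241 and 814). The 39295 annotated isoforms of the same genes had a median of 6 exons, 1378 bases and 204 bases per exon. Against the 19597 annotated isoforms that are protein coding, the exon number was the same (median 9), while length (2337 bases) and bases per exon (198) were lower. Long forms were common: 10.3% of class j isoforms reached 10000 bases, against 1.0% of the annotated isoforms. Short ones were fewer, with 6.1% against 15.4% having at most 2 exons. The median level was 1.93 FPKM for class j and 0.326 FPKM for the annotated isoforms of these genes, and 2.32 FPKM and 1.58 FPKM among the isoforms that passed the filter of a mean of 0.5 FPKM. Unlike an annotated isoform, a class j isoform is in the table because reads assembled it, so its level is not independent of how it entered the table.

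**Figure D2:**
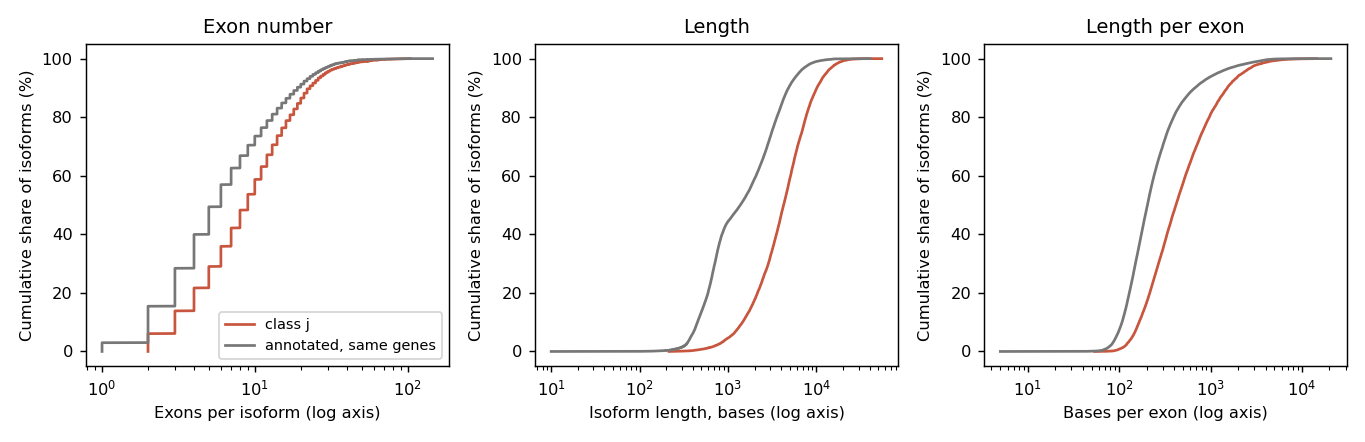
Cumulative share (%) of isoforms by exon number, length in bases and bases per exon (log axes), for the 13216 class j isoforms and the 39295 annotated isoforms of the same genes. The class j curve lies to the right in all 3 panels, with medians of 9 against 6 exons, 4248 against 1378 bases and 417 against 204 bases per exon.

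The class j isoform with the most exons was MSTRG.9673.1 of Ryr2, a calcium release channel of the endoplasmic reticulum, with 104 exons and 19439 bases. Its counts were 8630, 14335 and 17910 in control against 12132, 4684 and 0 in PS_high, so PS_high 3 had none while the lowest other library had 4684. Next was MSTRG.469.2 of Dst, which encodes a linker between cytoskeletal filaments, with 96 exons, which had 5927 counts in control 2, 3260 in PS_high 1, 4338 in PS_high 2 and 0 in the remaining libraries. The longest was MSTRG.36101.15 of Dlg2, a scaffold of the postsynaptic density, with 54719 bases in only 4 exons, inside the gene at chr7:91261935-91504498. Unlike the isoforms of Ryr2 and Dst it was present in all libraries, at 78595, 46527 and 52058 counts in control against 53532, 40957 and 49601 in PS_high, and it held a level of 11.5 to 18.5 FPKM. MSTRG.17973.8 of Epc1, a subunit of a histone acetyltransferase complex, had 39063 bases in 4 exons and 5731 to 9721 counts.

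Most class j isoforms differed from the annotation at an end. With a tolerance of 50 bases, 6206 (47.0%) started at an annotated start of the gene, 4956 (37.5%) of them at the exact base, and 6666 (50.4%) ended at an annotated end. Both ends matched in 3292 (24.9%), so that these differ from the annotation inside the transcript or in the pairing of ends, and neither end matched in 3636 (27.5%). Extension beyond the annotated gene was more frequent on the 3′ side (2289, 17.3%) than on the 5′ side (823, 6.2%). In exon number, 903 (6.8%) had more exons than any annotated isoform of the gene, 1721 (13.0%) had as many as the one with most, and 10592 (80.1%) had fewer. Even so, 5627 (42.6%) were longer than the longest annotated isoform.

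RefSeq gave another set of starts for comparison. Of 950 microRNA hairpins in the table, 942 had the positions of GRCm38.p6, and RefSeq promoter entries of that build matched the genes of 10389 class j isoforms (78.6%). Of 5456 isoforms among these that start more than 50 bases from every annotated start, 67 (1.23%) lay within 50 bases of a RefSeq start, against 1861 of 4933 (37.7%) that start near an annotated one. The 67 lay 51 to 99479 bases from the nearest annotated start, so some are only just past the tolerance. The most abundant of the 67 was MSTRG.10258.3 of Cplx2, a complexin that binds the SNARE complex at synapses, at chr13:54302558-54383917 with 5 exons. It starts 2 bases from a RefSeq start and 68791 bases from the nearest annotated start in the table. Its counts were 21875, 22568 and 31299 in control against 19571, 21888 and 26299 in PS_high, or 55.5, 60.4 and 77.6 FPKM against 50.6, 68.3 and 70.9 FPKM. The groups overlapped, and the log2 fold change was −0.01 (SE 0.23, edgeR adjusted p = 1). Together with the other class j isoform of the gene it held 79.7% to 97.8% of the counts of Cplx2.

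Aldoc, the aldolase of astrocytes, had the class j isoform MSTRG.6480.2 (chr11:78323092-78326708, 7 exons), which starts 76 bases from an annotated start and 19 bases from a RefSeq start. It had 12.6, 24.4 and 30.0 FPKM in control against 27.5, 27.1 and 45.6 FPKM in PS_high, with overlapping groups, and 13.3% to 34.0% of the counts of the gene. The third, MSTRG.6946.5 of Nfe2l1 (chr11:96817431-96823905, 4 exons), starts 103 bases from an annotated start and 26 from a RefSeq start. Nfe2l1 is a transcription factor that controls proteasome genes. This isoform had 4169, 3861 and 7072 counts in control against 4, 729 and 324 in PS_high, and all PS_high libraries lay below all control libraries. Its log2 fold change was −3.59 (SE 1.60, edgeR adjusted p = 1). The annotated ENSMUST00000107658, also with 4 exons, had 2274, 1515 and 1678 counts in control against 1921, 7042 and 8634 in PS_high, and the summed level of the gene was 110 CPM (counts scaled to library size) in control against 111 CPM in PS_high.

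Class j isoforms were found in 10.1% of the 54673 genes with an annotated isoform, and in 5474 (33.3%) of the 16417 genes with a summed level of at least 1 FPKM. A gene with any had a median of 2. There were 2614 genes with 1 and 112 genes with 10 or more. Snhg14, the long host transcript of small nucleolar RNAs that runs antisense to Ube3a, had 97. Ptprd, a receptor phosphatase of synapse formation, followed with 33, Hivep2 with 23, Huwe1 and Rims1 with 22, Macf1 and Sorbs2 with 20, and Ank2 with 19. Among these, Rims1 organises the presynaptic release site, Macf1 links microtubules to actin, and Ank2 anchors membrane proteins to the spectrin skeleton.

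Within a gene, the share of class = and class j counts that lay on class j took almost any value. Over 5498 genes with a mean of at least 10 counts the median was 48.8% (quartiles 22.4% and 74.3%). The share was under 10% in 684 genes, 10% to 50% in 2120, 50% to 90% in 2172 and at least 90% in 522, and in 40 genes no annotated isoform had any count. Longer genes had a slightly higher share, with a median of 46.1% in 670 genes spanning up to 10 kb and 55.0% in 381 genes spanning over 300 kb. They also had more class j isoforms, a mean of 1.46 against 4.41, and a higher median gene level, 7.49 against 17.74 FPKM.

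**Figure D3:**
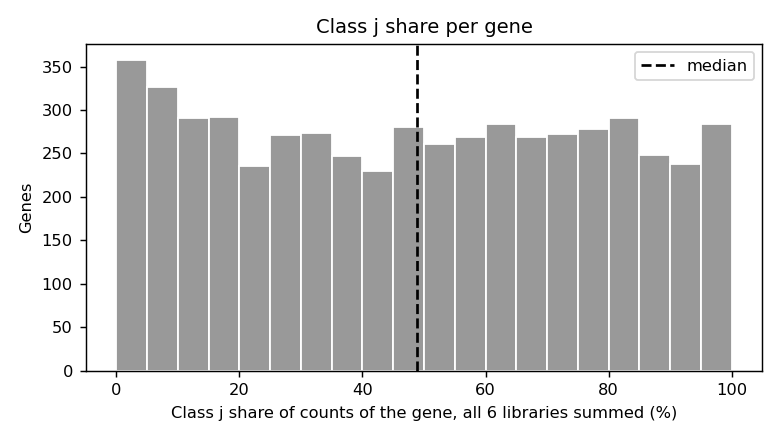
Number of genes (vertical axis) by the share of their counts on class j isoforms (%, counts of all 6 libraries summed), for 5498 genes; the dashed line is the median, 48.8%. Genes spread over the whole range, with the fullest bins at the low end.

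The genes with most counts among those over 90% class j included the following 6, which were chosen for a share close to its upper limit. Snhg14 had 94.5% ± 0.6 of its counts on class j in control against 94.1% ± 0.3 in PS_high (SD, n = 3 each, as for all shares below). For Csmd1, a large membrane protein that inhibits complement, the share was 98.3% ± 0.3 and 97.0% ± 1.3. Hivep2, a zinc finger transcription factor, had 98.6% ± 0.7 and 96.9% ± 2.3, and Tmod2, which caps actin filaments in neurons, 99.1% ± 0.2 and 96.1% ± 4.3. In both genes PS_high 1 was lowest, with 3953 annotated counts of Hivep2 against 511 to 1299 in the other libraries, and 5559 of Tmod2 against 373 to 874. The log2 odds were −1.51 for Tmod2, −0.95 for Hivep2 and −0.78 for Csmd1, with SE of 0.91, 0.75 and 0.46. Kcnma1, the large conductance calcium-activated potassium channel, had 96.5% ± 0.9 and 97.0% ± 0.2, and Itpr1, the inositol trisphosphate receptor, 96.5% ± 0.4 and 96.6% ± 0.2. None of the 6 passed the share test described below (edgeR, adjusted p = 0.994 for each).

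Several of the most abundant class j isoforms were present in some libraries of a group and nearly absent in others. MSTRG.4630.3 of Syt1, the calcium sensor of synaptic vesicle fusion, was even, at 201, 183 and 237 FPKM in control against 269, 235 and 210 FPKM in PS_high, and held 66.1% to 68.6% of the counts of the gene. MSTRG.4940.4 of Kif5a, a neuronal kinesin heavy chain, was not: it had 86119, 0 and 94112 counts in control against 0, 76032 and 82332 in PS_high. Control 2 and PS_high 1 thus had none. In those same libraries the annotated ENSMUST00000099172 had 13371 and 32509 counts against 192 to 409 in the remaining libraries, and the class j isoform MSTRG.4940.3 had 7338 and 22945 against 109 to 212. The class = and class j counts of Kif5a summed to 26580 in control 2 and 74128 in PS_high 1, against 76864 to 94869 elsewhere.

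Malat1, an abundant nuclear long non-coding RNA, had the class j isoform with the highest mean level (MSTRG.19349.2, 5 exons, 262 FPKM). Its counts were 1407, 127484 and 100834 in control against 152765, 85349 and 126007 in PS_high, so control 1 stood far below the rest. The annotated single-exon ENSMUST00000172812 had 882063, 380017 and 3156 counts in control against 447450, 309763 and 320996 in PS_high, with control 3 far below. The class j share of Malat1 was 0.2% in control 1, 25.8% in control 2 and 97.0% in control 3, against 21.6% to 28.2% in PS_high. MSTRG.14395.3 of Arf3, a small GTPase of the Golgi, had 137, 12.8 and 1.91 FPKM in control against 104, 165 and 81.3 FPKM in PS_high. MSTRG.21900.4 of Nckap1, a subunit of the actin-regulating WAVE complex, had 32.3, 149 and 37.4 FPKM in control against 166, 2.34 and 135 FPKM in PS_high. In PS_high 2, another class j isoform, MSTRG.21900.2, had 40375 counts against 587 to 13680 in the other libraries.

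The 3 remaining isoforms among the 8 with the highest level overlapped between groups as well. MSTRG.22182.9 of Slc1a2, the main glutamate transporter of astrocytes, had 75.4, 99.9 and 72.1 FPKM in control against 77.5, 80.2 and 180 FPKM in PS_high, with PS_high 3 alone high. PS_high 3 was also the highest library for MSTRG.3766.6 of Psap, the precursor of lysosomal saposins, at 185 FPKM against 47.7 to 83.7 FPKM in the other five. MSTRG.7358.1 of Prkar1a, a regulatory subunit of protein kinase A, ranged from 46.8 to 136 FPKM in control and from 35.4 to 131 FPKM in PS_high. For all 8 the edgeR adjusted p was 1.

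Such presence and absence was counted over all isoforms as those with at least 100 counts in 1 library of a pair and 0 in the other. Between pairs of control libraries this held for 10.58% to 11.28% of the class j isoforms with at least 100 counts in either, and between pairs of PS_high libraries for 11.73% to 12.91%. Pairs of a control and a PS_high library gave 10.78% to 12.00%, within the range of pairs inside a group. For annotated isoforms the range was 8.52% to 8.91% in control against 9.28% to 9.95% in PS_high, and for the class = and class j sum of a gene it was 0.04% to 0.07% and 0.05% to 0.09%. Among features with a mean of at least 100 counts, the median coefficient of variation of class j isoforms was 48.7% in control against 55.6% in PS_high. It was 28.8% and 33.7% for annotated isoforms, and 13.6% and 17.4% for the gene sums, which had a higher median count (3013, against 733 for class j and 329 for annotated isoforms). Counts of single isoforms thus varied more between samples of a group than the counts of their genes did.

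The isoform carrying most counts of a gene often differed from library to library. It was a class j isoform in all libraries for 1490 genes, an annotated one in all libraries for 1225, and of either class depending on the library for 2783. The same isoform led in all libraries in 1775 genes, in the 3 control libraries in 2740 and in the 3 PS_high libraries in 2569. In 30 of 5498 genes it was constant within each group and different between groups. Of these, 18 had a class j isoform leading in control and an annotated one in PS_high, and 7 had the reverse. A different annotated isoform led in each group in 3, and a different class j isoform in 2. How many genes would show this under another split of the libraries was not tested.

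No class j isoform passed the comparison of PS_high with control. Of 13216, 11259 had a mean of at least 0.5 FPKM and entered the edgeR quasi-likelihood test, which was fitted on all 69333 isoforms past that filter. At an adjusted p under 0.05, 0 of 11259 passed, against 3 of all isoforms (0.00433%), all 3 of them annotated (0.00782% of 38383). An unadjusted p under 0.05 was found for 653 class j isoforms (5.8%), against 2480 (3.58%) of all isoforms and 1362 (3.55%) of the annotated ones. DESeq2 called 321 class j isoforms, 160 higher and 161 lower (2.85%, against 1.41% of all and 1.39% of annotated isoforms), and limma on log2(FPKM + 0.1) called 6, 2 higher and 4 lower (0.0533%, against 0.0317% of all and 0.0365% of annotated isoforms). The groups did not overlap for 971 class j isoforms, 486 higher and 485 lower in PS_high (8.62%, against 8.17% of all and 8.29% of annotated isoforms), a share near the background. The median log2 fold change of the tested class j isoforms was 0.00.

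The isoforms described next have the smallest p among class j isoforms without overlap between groups and with a group mean of 1 FPKM or more. They are 8 higher and 8 lower in PS_high. None passed edgeR, and all 16 were called by DESeq2. The absence of overlap is part of how they were chosen. A gap between groups that is wide against the spread within them also follows from choosing the smallest p. Both values of each log2 fold change rest on counts scaled to library size (CPM).

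Kif5b, a kinesin heavy chain that moves organelles along microtubules, had the largest counts among those higher in PS_high. Its only class j isoform, MSTRG.17969.1, has 26 exons and 7362 bases, like the annotated ENSMUST00000025083 with 26 exons and 6032 bases. The class j isoform had 1301, 780 and 1336 counts in control against 9190, 6235 and 12836 in PS_high (17.5 ± 4.55 CPM against 159 ± 51.5 CPM, SD, n = 3). Every PS_high library lay far above every control library, and the log2 fold change was 3.18 (SE 0.36, edgeR adjusted p = 0.282). That annotated isoform had 15741, 12513 and 12372 counts in control against 14, 0 and 550 in PS_high (log2 fold change −6.04, SE 2.44, edgeR adjusted p = 1). Other annotated Kif5b isoforms were higher in PS_high, such as ENSMUST00000168031 with 129, 123 and 120 counts in control against 929, 453 and 936 in PS_high, and ENSMUST00000164426 with 196, 229 and 143 counts against 1225, 528 and 342. The class j isoform starts at an annotated start of Kif5b and ends 333 bases from the nearest annotated end.

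In Akap9, a scaffold that holds protein kinase A at the Golgi and centrosome, MSTRG.28846.11 (chr5:4001497-4033106, 8 exons) had 0 counts in all control libraries and 687, 825 and 664 in PS_high. With a floor of 3 counts over the control group it was at least 808-fold higher (edgeR adjusted p = 0.204). The class j isoform with most counts in the gene, MSTRG.28846.16, overlapped between groups, with 2320, 2528 and 3473 counts in control against 2245, 2278 and 2640 in PS_high. Mterf3, a mitochondrial transcription factor, had a class j isoform with 0 counts in control against 178, 143 and 292 in PS_high (at least 224.3-fold higher, adjusted p = 0.306). Of the 11259 tested class j isoforms, 7 had 0 counts in all control libraries and at least 100 in each PS_high library (0.0622%, against 0.026% of all tested isoforms and 0.0261% of annotated ones). The opposite pattern was found for 19 (0.169%, against 0.0606% and 0.0495%). Class j isoforms also had a higher median count than annotated ones.

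MSTRG.23182.1 of Nol4l (chr2:153407388-153445581, 8 exons) had 18, 51 and 16 counts in control against 1789, 1907 and 2215 in PS_high. Scaled to library size it had 0.44 ± 0.313 CPM in control against 33.7 ± 5.12 CPM in PS_high, and the log2 fold change was 6.25 (SE 0.66, edgeR adjusted p = 0.239). limma on log2(FPKM + 0.1) called it, with an adjusted p of 0.0386. The annotated ENSMUST00000035346 of the gene had 106, 126 and 2560 counts in control against 54, 123 and 38 in PS_high, so that control 3 carried annotated counts where the other 2 control libraries had few of either.

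MSTRG.2957.3 of Vip, the vasoactive intestinal peptide of a class of interneurons, had 46, 58 and 33 counts in control against 430, 421 and 392 in PS_high (log2 fold change 3.32, SE 0.34, edgeR adjusted p = 0.227). All 4 class j isoforms of Vip together held 67.3% ± 6.5 and 64.5% ± 2.6 of its counts, so the gene's class j share overlapped between groups. Log2 fold changes of isoforms of Vps33a, a subunit of the HOPS complex for lysosome fusion, of Adgrl4, an endothelial adhesion receptor, and of Wnk1, a kinase that regulates chloride cotransporters, were 3.03, 3.11 and 2.27. For these the counts were 76 to 100, 73 to 119 and 224 to 350 in control against 576 to 745, 534 to 966 and 1012 to 1509 in PS_high.

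Dido1, which encodes a chromatin reader of the nucleus, had the class j isoform with the smallest p of all. MSTRG.23778.1 (chr2:180657936-180709990, 14 exons, 11676 bases) had 1881, 2069 and 1124 counts in control against 14, 8 and 13 in PS_high (26.2 ± 8.04 CPM against 0.196 ± 0.0393 CPM, SD, n = 3). All PS_high libraries were near 0, and the log2 fold change was −7.05 (SE 0.44, edgeR adjusted p = 0.129). The annotated ENSMUST00000087517, with 16 exons and 8723 bases, had 414, 102 and 1 counts in control against 1387, 1805 and 2192 in PS_high. For Dido1 as a whole, the class j share was 73.6%, 79.8% and 67.7% in control against 60.4%, 53.1% and 56.1% in PS_high, with no overlap (log2 odds −1.13, SE 0.41, edgeR adjusted p = 0.994). On FPKM in place of counts the difference in log2 ratio was −0.40 (limma, adjusted p = 0.932). The gene sum was 108 CPM in control against 118 CPM in PS_high. The CCAAT box and GC boxes printed for Dido1 lie before a RefSeq start that is 9 bases from the start of this isoform.

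Slc4a3 encodes an anion exchanger of neurons and heart. Its isoform MSTRG.1130.3 (chr1:75546462-75555125, 17 exons, 2986 bases) starts exactly at the RefSeq start printed above and had 1491, 2134 and 2738 counts in control against 0 in all PS_high libraries. It was at least 1927-fold lower (floor of 3 counts over the group, edgeR adjusted p = 0.204), and limma on log2(FPKM + 0.1) called it (adjusted p = 0.011). The other class j isoform, MSTRG.1130.6, had 12, 9 and 15 counts in control against 1101, 253 and 5 in PS_high, so that PS_high 3 did not share the higher counts of PS_high 1 and PS_high 2. Clec16a, a membrane protein of endosomes and autophagy, had MSTRG.14793.7 with 894, 908 and 983 counts in control against 0 in PS_high (at least 843.7-fold lower, adjusted p = 0.159).

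Zfp322a, a zinc finger protein gene, had 1 class j isoform, MSTRG.9815.1 (chr13:23352566-23369785, 4 exons), with 2625, 2461 and 1489 counts in control against 68, 50 and 93 in PS_high. Its log2 fold change was −4.83 (SE 0.41, edgeR adjusted p = 0.169). Here the mean gene sum was lower too, at 36.4 CPM in control against 16.8 CPM in PS_high, but it was not tested and the groups overlapped. The sum was 2810, 2558 and 1705 counts in control against 491, 291 and 2221 in PS_high, and 2049 counts on the annotated ENSMUST00000050101 were in PS_high 3 alone. Apopt1, which encodes a mitochondrial assembly factor of cytochrome c oxidase, had a class j isoform with 427, 483 and 400 counts in control against 35, 15 and 19 in PS_high (log2 fold change −4.13, SE 0.39, adjusted p = 0.204). Unc79, of the NALCN sodium leak channel complex, Mef2d, a neuronal transcription factor, and Bcas3 had log2 fold changes of −9.32, −5.49 and −5.27. The Unc79 isoform had 1636, 1546 and 618 counts in control against 1, 2 and 2 in PS_high, yet the class j share of Unc79 overlapped between groups (84.6% ± 3.7 and 87.9% ± 2.8).

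**Figure D4:**
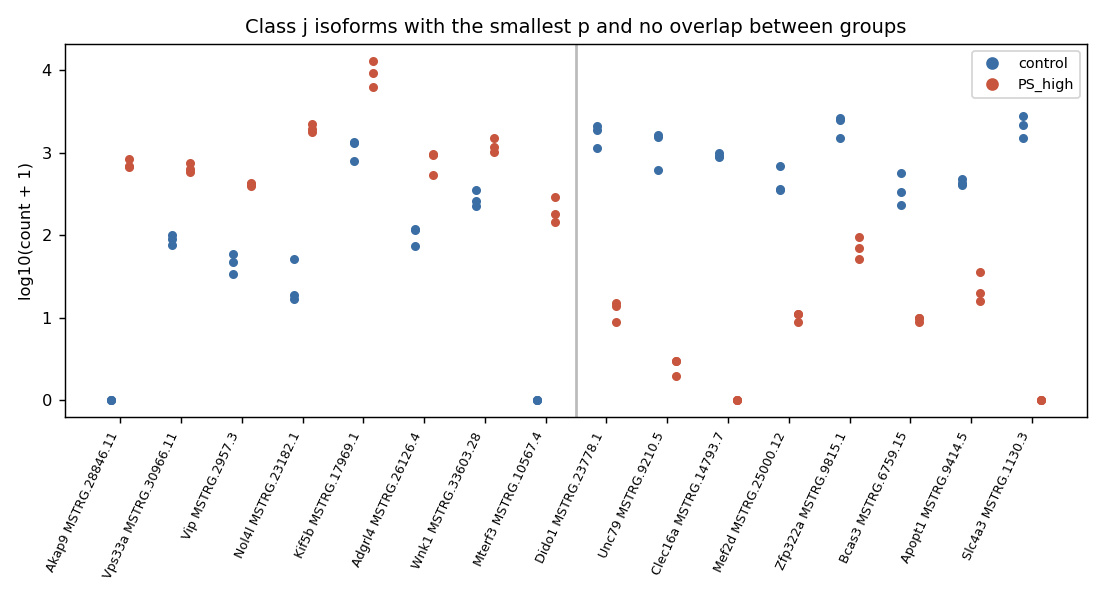
log10(count + 1) of the 16 class j isoforms with the smallest p among those whose groups do not overlap and that reach a group mean of 1 FPKM. Of these, 8 are higher (left of the line) and 8 lower (right) in PS_high. Each point is a library, not scaled to depth. Isoforms of Akap9 and Mterf3 have 0 counts in all control libraries, and those of Clec16a and Slc4a3 in all PS_high libraries.

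limma on log2(FPKM + 0.1) called 4 further class j isoforms that were not among these 16. MSTRG.18386.5 of Paip2, an inhibitor of the poly(A)-binding protein, had 4, 4 and 0 counts in control against 3747, 2841 and 4232 in PS_high and was higher by 7.44 on that scale (adjusted p = 0.00181). Atp2b3, a calcium pump of the plasma membrane, had MSTRG.42491.9 with 3523, 5687 and 5275 counts in control against 0, 0 and 24 in PS_high (adjusted p = 0.0131). Isoforms of Castor2, a gene of the mTORC1 pathway, and of Eci2, a fatty acid isomerase, had 2483, 3337 and 7828 and 466, 301 and 866 counts in control against 0 in all PS_high libraries (adjusted p = 0.0414 and 0.042). With log2(FPKM + 1), limma called neither of these (adjusted p = 0.135 and 0.114), and it called the class j isoform of Apopt1 (adjusted p = 0.0426, against 0.0535 with + 0.1). A log2 scale with a pseudocount understates changes that involve values near 0, and its part in these calls was not tested.

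The class j share of a gene was tested as the interaction of class and group in edgeR, for 5362 genes with a mean of at least 10 counts in each class. No gene passed at an adjusted p under 0.05 (0%), and 147 (2.74%) had an unadjusted p under 0.05. limma on the log2 ratio of class j to class = counts called 0 as well, with 198 at an unadjusted p under 0.05. The groups did not overlap for 499 genes (9.31%), 250 with a higher (4.66%) and 249 with a lower share (4.64%) in PS_high. The median log2 odds over the 5362 genes was −0.03, and 2620 genes were above 0. The 12 genes with the smallest p among those without overlap and with a group mean of 1 FPKM or more follow, 6 in each direction. None of them passed, and the absence of overlap and the gap between groups follow in part from this choice. On FPKM in place of counts none of the 12 passed either, and the differences of Kcna2, Tlk1 and Shld2 were −7.24, 2.14 and −2.45, against −11.33, 3.34 and −4.50 on counts.

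Kif5b had the smallest p. Its class j share was 7.4%, 5.6% and 9.4% in control against 79.1%, 84.6% and 86.4% in PS_high, with a wide gap between the groups (log2 odds 6.01, SE 0.43, edgeR adjusted p = 0.0965). The summed level of the gene was 234 CPM in control against 190 CPM in PS_high, so most of the difference lay in how counts were divided between the class j and the annotated isoforms. Paip2 had 1.6%, 3.5% and 5.0% in control against 76.7%, 73.1% and 84.4% in PS_high (log2 odds 6.84, SE 0.67, adjusted p = 0.233), at 83.1 and 77.9 CPM. In its control libraries a different annotated isoform led each time: ENSMUST00000041314 with 4063 counts in control 1, ENSMUST00000235400 with 3999 in control 2 and ENSMUST00000235476 with 4671 in control 3.

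Taok2, a kinase of dendrite growth, had class j shares of 39.4%, 46.2% and 41.1% in control against 87.2%, 92.9% and 92.7% in PS_high (log2 odds 3.84, SE 0.47, edgeR adjusted p = 0.398). The annotated ENSMUST00000117394 had 1025, 976 and 1066 counts in control against 0 in all PS_high libraries, while the leading class j isoform MSTRG.36803.1 had 1573 to 1791 counts in control against 2326 to 3224 in PS_high. Fmr1 encodes FMRP, an RNA-binding protein that regulates translation at synapses. Its class j share was 27.6%, 33.1% and 28.7% in control against 80.8%, 85.7% and 74.6% in PS_high (log2 odds 3.31, SE 0.44, adjusted p = 0.444). The annotated ENSMUST00000114657 of Fmr1 had 3421, 2794 and 4142 counts in control against 0 in PS_high, and the class j isoform MSTRG.42443.3, whose start is the RefSeq start printed above, had 1300, 1026 and 1225 counts in control against 5453, 3376 and 2098 in PS_high. The summed level was 96.3 CPM in control against 96.7 CPM in PS_high. Tlk1, a kinase of chromatin assembly, had shares of 4.4% to 6.1% and 26.7% to 45.9%, and Gab1, an adaptor of receptor tyrosine kinases, 1.1% to 2.4% and 10.9% to 21.8%.

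Kcna2, the voltage-gated potassium channel Kv1.2, led the genes with a lower share. Its class j isoform MSTRG.25559.3 had 23691, 4954 and 5454 counts in control against 1, 12 and 6 in PS_high, and the share was 73.2%, 22.6% and 20.4% in control against 0.0% in each PS_high library (log2 odds −11.33, SE 1.38, edgeR adjusted p = 0.398). Control 1 stood apart from the other control libraries, and the gene sum was 415 CPM in control against 421 CPM in PS_high. This isoform has 3 exons and 11505 bases, close to the 3 exons and 11582 bases of the annotated ENSMUST00000038695, which had 7368, 16299 and 20491 counts in control against 14590, 30215 and 23500 in PS_high.

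Cipc, a repressor of the CLOCK transcription factor, had class j shares of 97.6%, 97.9% and 95.8% in control against 74.7%, 57.8% and 54.4% in PS_high (log2 odds −4.39, SE 0.63, edgeR adjusted p = 0.444). The annotated ENSMUST00000187814 of Cipc had 0 counts in all control libraries and 238, 764 and 1296 in PS_high. Arhgap29, which encodes a GTPase-activating protein, had 87.4%, 88.3% and 88.4% in control against 43.4%, 57.2% and 46.4% in PS_high (log2 odds −2.94, SE 0.47, adjusted p = 0.53). With FPKM in place of counts (limma on the log2 ratio of class j to class = FPKM, each + 0.1) the difference was −0.88 (adjusted p = 0.918). Its class j isoform MSTRG.25774.5 and the annotated ENSMUST00000037958 both have 23 exons. The shares of Zfp322a were 93.4%, 96.2% and 87.3% against 13.8%, 17.2% and 4.2%, those of Apopt1 53.4%, 48.7% and 37.1% against 5.0%, 2.0% and 2.2%, and those of Shld2, a subunit of the shieldin complex of DNA repair, 21.3%, 15% and 16.6% against 0.8%, 1.0% and 1.0%.

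**Figure D5:**
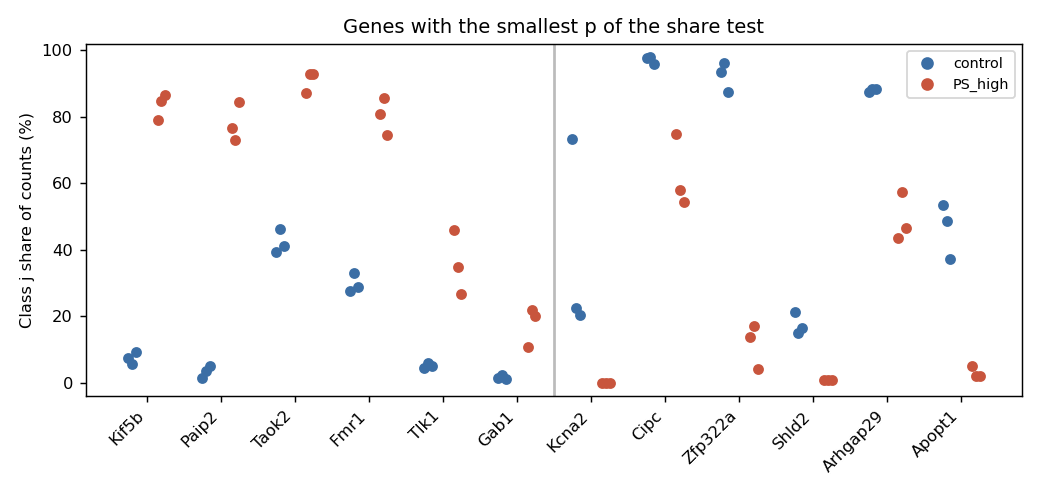
Class j share of the class = and class j counts (%) of 12 genes, 6 with a higher share in PS_high (left of the line) and 6 with a lower share (right). They have the smallest p of the share test among genes whose groups do not overlap and that reach a group mean of 1 FPKM. Each point is a library. Kif5b lies under 10% in control and at 79.1% to 86.4% in PS_high, and Kcna2 at 0.0% in all PS_high libraries.

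Zfp1, a zinc finger gene, had all of its counts on class j in every library, since its annotated isoforms were at 0, so its share could not be tested. Its class j counts were 2664, 2986 and 3198 in control against 689, 609 and 622 in PS_high, with no overlap. The 2 isoforms behind them differed in rank between libraries: MSTRG.39123.1 led in control 1 and control 2 (2536 and 2819 counts) and MSTRG.39123.6 in control 3 (2612 counts). Gsk3b, a kinase that phosphorylates tau, had 1 class j isoform, with 0 counts in the other libraries and 7418 in PS_high 3, so its share rests on that library. The class = and class j counts of Gsk3b summed to 5098, 4735 and 4537 in control against 27648, 19602 and 18643 in PS_high, with no overlap. This was 73.9 CPM in control against 371 CPM in PS_high, and most of these counts were annotated. The gene sum was not tested. Hp1bp3 and Actr3 had no class j isoform.

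Most splicing regulators had class j isoforms themselves. Of 23 neuronal splicing regulators, 21 had any, with a median class j share of 52.6% over genes, and 11 were over 50%, against a median of 48.8% and 2694 of 5498 over all genes with class j isoforms. None of their 81 tested isoforms passed edgeR, and 3 had an unadjusted p under 0.05, against 653 of 11259 (5.8%) over all tested class j isoforms. Rbfox2, a factor that selects exons in neurons, had 99.2% ± 0.1 in both groups. Celf2, a regulator of splicing and RNA stability, had 39.7%, 36.8% and 37.3% in control against 52.0%, 57.8% and 58.1% in PS_high, with no overlap (log2 odds 1.06, SE 0.27, edgeR adjusted p = 0.994). Qk, which binds RNA in glia, had 52.5% ± 3.2 and 52.4% ± 1.9. All 16 SR and Tra2 genes, whose proteins bind exonic enhancers or phosphorylate those that do, had class j isoforms, with a median share of 66%, 11 genes over 50% and 0 of 41 isoforms passing. Tra2b had 88.5% ± 0.7 and 85.5% ± 1.0, and Srpk2, an SR protein kinase, had 52.6% ± 9.7 and 55.2% ± 24.2, where PS_high 1 alone had 21930 class j counts against 6270 and 6503 in the other PS_high libraries. Srsf11 had 77.2% ± 10.4 and 85.1% ± 8.6.

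Synaptic genes had the highest median share of the 6 functional lists. These shares rest on counts, which are not divided by isoform length, and medians of the lists on FPKM were not computed. Of 34 genes for synaptic adhesion, receptors and scaffolds, 30 had class j isoforms, with a median share of 70.1% and 21 genes over 50%. Of their 187 tested isoforms 0 passed edgeR, and 9 had an unadjusted p under 0.05, against 5.8% of all tested class j isoforms. Dlg2 had 91.3%, 86.4% and 83.1% in control against 78.0%, 73.4% and 73.6% in PS_high, with no overlap (log2 odds −1.19, SE 0.37, edgeR adjusted p = 0.994). Much of this lay on the 54719-base MSTRG.36101.15, with 78595 of 140286 class j counts of Dlg2 in control 1 and 53532 of 98603 in PS_high 1. Ptprd had 79.2% ± 6.2 and 75.9% ± 2.2, and Gria2, a subunit of AMPA receptors, 74.4% ± 3.9 and 76.2% ± 2.3. Of 19 ion channel genes, 18 had class j isoforms, with a median share of 57.9%, 11 genes over 50% and 0 of 72 isoforms passing. Cacna1e, a calcium channel, had 92.1% ± 1.1 and 89.1% ± 3.0.

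Of 15 genes of amyloid, tau and synuclein biology, 10 had class j isoforms, with a median share of 51.2% and 6 over 50%. Of their 19 tested isoforms 0 passed edgeR, and 1 had an unadjusted p under 0.05, against 5.8% of all tested class j isoforms. App, the amyloid precursor, had 36.2% ± 6.0 in control against 33.7% ± 3.4 in PS_high. Bace1, the secretase that cuts it first, had 92.0% ± 8.9 and 92.4% ± 6.6, and Map2, a dendritic microtubule protein, 48.8% ± 17.3 and 51.6% ± 5.3. Of 19 genes for RNA binding, decay and polyadenylation, 15 had class j isoforms, with a median share of 54.7%, 9 over 50% and 0 of 44 isoforms passing. Smg1, a kinase of nonsense-mediated decay, had 92.6% ± 1.1 and 86.8% ± 6.6, Hnrnpu 39.9% ± 0.3 and 42.3% ± 6.0, and Cpsf6, a polyadenylation factor, 64.6% ± 5.5 and 60.4% ± 5.2. In all these genes the groups overlapped or the difference did not pass.

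Among cell type markers, class j isoforms were found for 5 of 10 excitatory neuron markers, 2 of 7 interneuron markers, 5 of 8 astrocyte markers, 3 of 12 oligodendrocyte and myelin markers, 2 of 9 microglial markers and 1 of 8 endothelial and mural markers. Of 8 choroid plexus markers 2 had any, of 5 blood markers 1, and of the 8 meningeal, 6 striatal and 7 blood immune cell markers none. Over all genes with a summed level of at least 1 FPKM, 5474 of 16417 (33.3%) had any. The lists were not compared with a test. None of the marker genes' class j isoforms passed edgeR.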

How the data were processed

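The deposited table of linear transcripts gives, per isoform and library, FPKM and an estimated count made by the authors. Per the submitters' processing notes, HISAT2, StringTie and TopHat were used. Versions, tool roles and the genome build were not given in the sources used here. Every deposited estimated count was whole. Depth was 53344395 to 66004386 counts, and floors of 3 counts cover counting error only. The class code set the members. The table of circular RNAs was not used.

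Isoforms averaging 0.5 FPKM or more were tested with edgeR 4.0.16 (R 4.3.3, quasi-likelihood, TMM factors, two-sided, Benjamini-Hochberg over all isoforms tested). The class j share was tested in edgeR on counts summed per gene over class j and class =, with library, class and class by group as terms. The SE given with edgeR values is the absolute log2 value divided by the square root of the F statistic. It is not a standard error fitted by the model. Library values had an exact permutation test. DESeq2 1.42.0, limma 3.58.1, other filters, a replicate block and leaving out each library were alternatives. The models were also run on simulated counts, with the same set spread for all features and no switching between presence and absence. The wider spread of these data was not simulated, so that run does not measure error rates here. Members, gene lists and named genes were chosen with earlier results of these data known. Named isoforms and genes were to be those with the largest fold change past an adjusted p of 0.05, without overlap and with a group mean of 1 FPKM or more. For genes this level was summed over class = and class j. Since none passed, the smallest p decided. Others were the most abundant isoforms, the genes with most counts over 90% class j, up to 3 members per list, genes fixed by name and the isoforms with the most exons or bases. Near-identical gene copies may share reads. The values of 1 named list member are not reported here.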

Additional observations from a re-analysis of the deposited data

How the results depend on the processing

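The count of class j isoforms past the threshold was 0 in edgeR with no filter on low values, at 1 FPKM, at 10 counts, with RLE factors and without each library in turn (0 to 0), where 531 to 862 had an unadjusted p under 0.05. It was 321 with DESeq2, 6 with limma on log2(FPKM + 0.1) and 5 with limma on log2(FPKM + 1), and the cause was not tested. On FPKM in place of counts, the class j share difference of Unc79 was 0.03, against 0.40. The count of genes in the share test was 0 under every alternative run, with 147 to 280 at an unadjusted p under 0.05. With the replicate block both counts were 0, with 975 isoforms and 280 genes at an unadjusted p under 0.05. The replicate numbers share no stated source, and deviations of same-numbered libraries correlated at 0.0201, −0.0145 and −0.0282, so the numbers were not taken as a pairing. The class j share of library counts differed by −0.641 percentage points on FPKM sums, and by −0.977 to 0.211 without each library in turn. The sign reversed without PS_high 2 (0.210) and without PS_high 3 (0.211). The number of isoforms detected differed by −160 to −6.33 without each library in turn. The log2 odds of the Gsk3b share, 2.17, lay between −2.44 and 8.16 without each library in turn and reversed without PS_high 3 (−2.44), the only library with class j counts of that gene. With the replicate block it was 12.13 (adjusted p = 0.923). Of the values of the 16 named isoforms under the alternatives, 198 kept direction and side of the threshold and 21 kept direction and passed it, 16 of them with DESeq2. These isoforms were chosen for no overlap and the smallest p in the same libraries. That choice largely fixed the direction in advance, so this tally is not independent support. Isoform counts are estimates whose division among isoforms has no error given in the table, which limits every isoform value here.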
